A study of Mus musculus with 10 samples.

Results

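Cathepsins are the protein-cutting enzymes of the lysosome, and cystatin C is a secreted inhibitor of those that work through a cysteine. The genes described here were chosen by name and number 10 of the 53465 genes in the files: Ctsb, Ctsc, Ctsh, Ctsk, Ctsl and Ctsz for cysteine cathepsins, Ctsd and Ctse for aspartic cathepsins, Ctsa for the serine carboxypeptidase cathepsin A, and Cst3 for cystatin C. RNA came from whole lung of BALB/c mice in 2 groups of 5 libraries, controls that the series describes as untreated and mice challenged through the nose with the cytokine IL-33. Challenged mice received 1 µg of IL-33 in 35 µL daily for 5 days, and lung tissue was collected 24 hours after the final one. The sources used here do not say whether the controls received vehicle, or give the age and sex of the mice. Nothing in the labels ties each library to a separate animal, so p-values measure the spread between these libraries.

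Cathepsins are made as inactive proenzymes, carry a mannose 6-phosphate tag that sends them to the lysosome, and become active in the acid that the proton pump V-ATPase maintains there. Macrophages are rich in them, and they degrade engulfed protein, trim antigens and, when secreted, cut extracellular matrix. Cystatin C binds the active site of cysteine cathepsins outside the cell, while stefins do so in the cytosol. In the lung, cathepsin H also takes part in surfactant protein processing in alveolar type 2 cells.

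Each library had between 7805175 and 13767118 reads in genes, and levels are given in CPM, reads scaled to a fixed library size with trimmed-mean factors. All adjusted p-values are from edgeR's quasi-likelihood test over 15695 genes with Benjamini-Hochberg adjustment, called at 0.05, and every log2 fold change sets IL-33 against control. The lung marker Sftpc, surfactant protein C, stood at 10586 ± 904.9 CPM in controls and 10199 ± 785.5 CPM with IL-33 (SD, n = 5), a change that did not pass the test but was called lower with the length and GC trend removed (log2 -0.05 and -0.86). Reads that aligned to several places made up 15% to 16.15% of records in control and 19.97% to 22.76% in IL-33 libraries. Short genes stood higher after IL-33: when the tested genes were cut into 10 equal classes of exonic length, the median log2 fold change was 0.72 in the shortest class (48 to 1527 bases) and -0.31 in the longest. Ctsk, Ctsz and Cst3 lie in the shortest class. The changes of the 10 genes are therefore given also after removal of the trend that each library shows with exonic length and GC. Those of other genes are given where this moved the fold change, not its log2, by over 1.5 times or changed a call. Smaller moves of other genes are left out. Whether that trend is technical was not tested.

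IL-33 lungs held more transcript of 9 of the 10 genes by the test, and no gene of the 10 was called lower. Of all genes tested, 69.9% were called, 35.1% higher and 34.8% lower, so a call by itself was common in this comparison. Every count of calls in the lists and markers below is to be read beside these shares. The IL-33 and control libraries did not overlap for 8 of the 10, all with IL-33 higher. Of all tested genes, 56.5% did not overlap, 29.1% with IL-33 higher and 27.4% with IL-33 lower. The median log2 fold change of the 10 was 0.94, and that of all tested genes was -0.0068. With the length and GC trend removed, 8 were called higher and 1 lower, beside 29.4% and 39.1% of all tested genes. In RNA of whole lung, more cells of a type and more RNA per cell cannot be told apart.

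**Figure D1:**
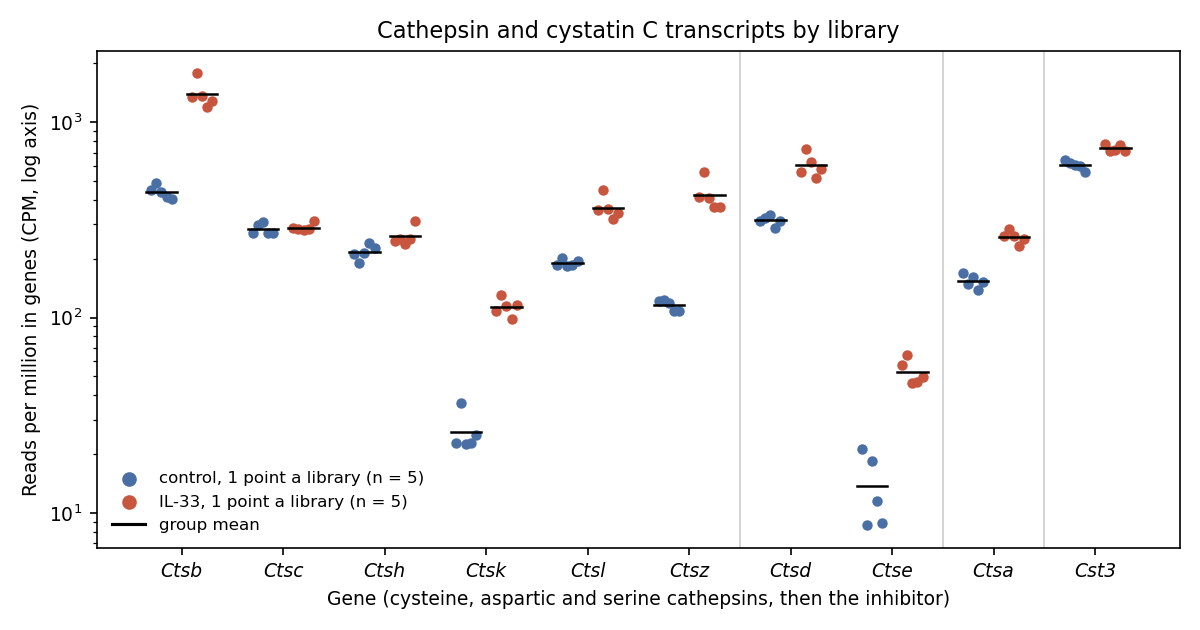
Level of each gene in every library in CPM (log axis), with control libraries in blue, IL-33 libraries in red and group means as black lines. The groups are separate for every gene except Ctsc and Ctsh, and Ctsk goes from a mean of 26.0 to 113 CPM.

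Cathepsin B, an endopeptidase that can also remove dipeptides, had the most reads of the 9 cathepsins (ENSMUSG00000021939, chr14:63122462-63145923, plus strand). Control libraries 1 to 5 stood at 451, 487, 440.4, 415 and 405 CPM, and IL-33 libraries 1 to 5 at 1342.5, 1779.9, 1368, 1203 and 1287 CPM. Every IL-33 library was above every control, and IL-33 library 2 stood well above the other IL-33 libraries. Ctsb rose from 439.8 ± 32.2 to 1396 ± 224 CPM (SD, n = 5). The log2 fold change was 1.67 ± 0.11 (SE, n = 5), adjusted p = 4.2e-08. Without IL-33 library 2 it was 1.57, and with the length and GC trend removed 1.75.

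Cathepsin K cuts collagen and elastin and is best known from osteoclasts, the cells that resorb bone (ENSMUSG00000028111, chr3:95499256-95509362, plus strand). It stood at 22.8, 36.6, 22.6, 22.8 and 25.0 CPM in controls 1 to 5 and at 108, 129.8, 114, 98.6 and 116 CPM in IL-33 libraries 1 to 5. The groups lay far apart, with control library 2 the highest control. Ctsk rose from 26.0 ± 6.04 to 113 ± 11.4 CPM (log2 fold change 2.13 ± 0.15, adjusted p = 2.88e-08). That was the largest change of the 10, but with the length and GC trend removed it was 1.43, below those of Ctsb and Ctse. Without control library 2 it was 2.26.

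Osteoclast genes were read beside it, as a check on the cells Ctsk is known from. Of 7 tested, 4 were higher and 2 lower, beside 35.1% and 34.8% of all tested genes. Their summed level ran from 144 to 192 CPM in controls and from 261 to 328 CPM with IL-33. Acp5, the tartrate-resistant acid phosphatase, rose from 17.5 ± 2.76 to 105 ± 15.5 CPM, and Ocstamp, a membrane protein of cell fusion, from 0.145 ± 0.0648 to 9.26 ± 0.682 CPM. Near 0 in controls, Ocstamp could pass the filter on low counts only through the IL-33 group. Calcr, the calcitonin receptor, fell from 2.15 to 0.808 CPM. The part of such cells in the Ctsk result was not tested.

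Cathepsin Z, also named cathepsin X, removes single residues from the carboxyl end of proteins (ENSMUSG00000016256, chr2:174427493-174439039, minus strand). Controls 1 to 5 gave 122, 124, 119, 108 and 108 CPM, and IL-33 libraries 1 to 5 gave 413, 553.5, 408, 370.2 and 366 CPM. No library of one group reached the other, and library 2 was again the highest of the IL-33 group. Ctsz rose from 116 ± 7.73 to 422 ± 76.4 CPM (log2 fold change 1.86 ± 0.12, adjusted p = 2.24e-08). With the length and GC trend removed it was 1.25.

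Cathepsin L is an endopeptidase that, in thymic epithelium, trims the invariant chain of MHC class II (ENSMUSG00000021477, chr13:64359337-64370890, minus strand). Its controls 1 to 5 were at 186, 203, 185, 186 and 194 CPM, and its IL-33 libraries 1 to 5 at 355, 449, 358, 321 and 344 CPM. Controls were tight, with a coefficient of variation of 4.01%, and all lay below the IL-33 libraries. Ctsl rose from 190.7 ± 7.64 to 365 ± 48.9 CPM (log2 fold change 0.94 ± 0.09, adjusted p = 7.92e-07). It was 1.01 with the length and GC trend removed.

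Cathepsins C and H had the smallest fold changes of the 6 cysteine cathepsins. Cathepsin C, or dipeptidyl peptidase 1, activates the serine proteases of neutrophil, mast cell and lymphocyte granules (ENSMUSG00000030560, chr7:88278085-88310888, plus strand). It stood at 272, 297, 308, 270.1 and 272 CPM in controls 1 to 5 and at 286, 283, 279, 285 and 311 CPM in IL-33 libraries 1 to 5. The groups overlapped over most of their range. Its mean was 284 ± 17.7 CPM in controls and 289 ± 12.6 CPM with IL-33, a log2 difference of 0.03 ± 0.05 that did not pass the test (adjusted p = 0.74) and changed sign, staying near 0, when single libraries were left out. It was 0.05 with the length and GC trend removed (adjusted p = 0.522). Among markers of granule-bearing cells, the summed level of 8 neutrophil genes was 51.1 to 159 CPM in controls and 326 to 517 CPM with IL-33, and that of 6 eosinophil genes 0.854 to 2.9 and 59.1 to 72.6 CPM. Of these, 6 and 6 were tested and called higher, but most were near 0 in controls and could pass the filter on low counts only through the IL-33 group, so nothing is read from that count. Their part in the Ctsc level was not tested.

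Cathepsin H is an aminopeptidase (ENSMUSG00000032359, chr9:90054152-90076089, plus strand). Its controls 1 to 5 were at 211, 190.7, 214, 242 and 226 CPM, and its IL-33 libraries 1 to 5 at 247, 252, 239, 252 and 314 CPM. Control library 4 lay above IL-33 library 3, so the groups overlapped. Ctsh rose from 217 ± 18.9 to 261 ± 30.2 CPM (log2 fold change 0.27 ± 0.09, adjusted p = 0.0159, or 0.23 with the length and GC trend removed). The call was lost without control library 2 (log2 0.21, adjusted p = 0.0573), and without IL-33 library 5 the change was 0.19 (adjusted p = 0.0429). Of 8 alveolar type 2 markers, 1 was higher and 6 lower, beside 35.1% and 34.8% of all tested genes. The summed markers stood at 19230.0 to 22138 CPM in controls and 15890.0 to 19206 CPM with IL-33. The part of alveolar type 2 cells in the Ctsh result was not tested.

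Cathepsin D is the main aspartic protease of the lysosome and helps activate other proenzymes (ENSMUSG00000007891, chr7:142375911-142388038, minus strand). In controls 1 to 5 it stood at 314, 324, 335, 286.5 and 312 CPM, and in IL-33 libraries 1 to 5 at 554, 729.9, 629, 518 and 573 CPM. The lowest IL-33 library was well above the highest control. Ctsd rose from 314 ± 18.1 to 601 ± 82.7 CPM (log2 fold change 0.93 ± 0.09, adjusted p = 1.53e-06). With the length and GC trend removed, the change was 0.59.

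Cathepsin E, an endosomal aspartic protease found mainly in immune and gastric cells, had the fewest reads of the 10 (ENSMUSG00000004552, chr1:131638306-131675505, plus strand). Controls 1 to 5 gave 21.3, 8.64, 18.4, 11.5 and 8.82 CPM, and IL-33 libraries 1 to 5 gave 57.1, 64.3, 46.3, 46.9 and 49.9 CPM. Controls spread the most of any of the 10 genes, with a coefficient of variation of 42.1%, yet none came near an IL-33 library. Ctse rose from 13.7 ± 5.77 to 52.9 ± 7.70 CPM (log2 fold change 1.93 ± 0.27, adjusted p = 5.63e-06, or 1.71 with the length and GC trend removed). Over each group's 5 libraries this rests on 767 and 2769 reads.

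Cathepsin A is a carboxypeptidase that also protects lysosomal beta-galactosidase and neuraminidase 1 in a shared complex (ENSMUSG00000017760, chr2:164832873-164841032, plus strand). Its controls 1 to 5 were at 169.6, 149, 161, 139 and 152 CPM, and its IL-33 libraries 1 to 5 at 260.1, 284, 261, 232 and 252 CPM. The groups were separate by a wide gap. Ctsa rose from 154 ± 11.6 to 258 ± 18.7 CPM (log2 fold change 0.74 ± 0.07, adjusted p = 1.43e-06, or 0.79 with the length and GC trend removed). Its partners rose as well, Glb1 (beta-galactosidase) by 0.78 and Neu1 (neuraminidase 1) by 0.72 on the log2 scale. That pair was singled out from its list after the values were seen.

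Cystatin C is the main secreted inhibitor of cysteine cathepsins (ENSMUSG00000027447, chr2:148871722-148875692, minus strand). Cst3 stood at 644, 615, 607, 596 and 554 CPM in controls 1 to 5 and at 777.5, 716, 720.3, 760.4 and 710.3 CPM in IL-33 libraries 1 to 5. The groups were close but did not overlap, and each was tight, with a coefficient of variation of 5.44% in controls and 4.09% with IL-33. It rose from 603 ± 32.8 to 737 ± 30.2 CPM (log2 fold change 0.29 ± 0.04, adjusted p = 0.00172). With the length and GC trend removed the direction turned: the change was -0.38 and was called lower (adjusted p = 0.000352). Cst3 has 1266 exonic bases, the fewest of the 10.

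**Figure D2:**
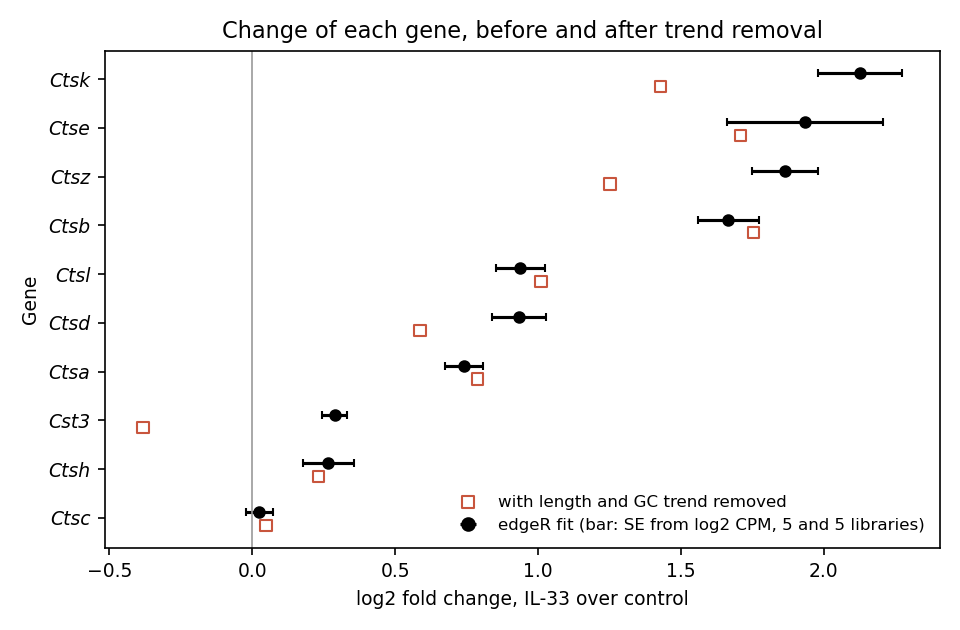
Log2 fold change of each gene, IL-33 over control, from the edgeR fit (filled circles, bars are 1 SE over 5 and 5 libraries) and with each library's length and GC trend removed (open squares). Cst3 moves from 0.29 to -0.38, Ctsk from 2.13 to 1.43, and Ctsb stays at 1.67 and 1.75.

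Profiles over the 10 libraries were compared as the root mean square difference of log2(CPM + 0.5), centred on the control mean, so that 0 means identical courses. Ctsd and Ctsl were the closest pair at 0.0711, followed by Ctsb and Ctsz at 0.141 and Ctsa and Ctsd at 0.156. Among 10897 genes at 10 CPM or more, those most like Ctsb included Emp3, an epithelial membrane protein (0.0989), and Dbf4, an activator of a replication kinase (0.1097). Nearest to Ctsk were Rgs5, a G protein regulator of pericytes (0.121), Ncapg2, a condensin subunit (0.147), and Dclk1, a microtubule-associated kinase (0.158). With a pseudocount of 0.1 or 2 in place of 0.5, 2 of the 3 nearest genes of each were shared. Log2 fold changes were also followed over the alternative fits that kept all libraries. That of Ctsb ran from 1.63 to 1.755, of Emp3 from 0.88 to 1.65 and of Dbf4 from 1.65 to 1.85. Ctsk ran from 1.43 to 2.155, Rgs5 from 1.99 to 2.09, Ncapg2 from 2.11 to 2.335 and Dclk1 from 2.27 to 2.585. These likenesses therefore hold only for levels without the length and GC trend removed. All of these genes share the same libraries, and a like course says nothing of a shared control.

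IL-33 library 2 was the highest IL-33 library for 7 of the 10 genes, and IL-33 library 4 the lowest for 5. Macrophage markers are given beside it: of 14 genes, 11 were higher and 3 lower, beside 35.1% and 34.8% of all tested genes. None was at 0, and C1qa, a complement subunit made by tissue macrophages, rose from 25.9 ± 1.08 to 192 ± 38.6 CPM (log2 2.89, and 2.17 with the length and GC trend removed). The summed level of all 14 was 4115 to 4452 CPM in controls and 2648 to 3093 CPM with IL-33, lower in every IL-33 library. Of the IL-33 libraries, library 5 had the highest of these sums and library 1 the lowest. Lyz2, a lysozyme also made by alveolar type 2 cells, made up most of the control sum and fell from 3711 ± 117 to 1418 ± 261.5 CPM (log2 -1.39, and -2.16 with the trend removed). The other 13, a list trimmed after the values were seen, summed to 536 to 578 CPM in controls and 1215 to 1712 CPM with IL-33, highest in IL-33 library 2 and lowest in IL-33 library 4. Resident alveolar macrophage markers were mostly lower, 6 of 10 against 2 higher, beside 34.8% and 35.1% of all tested genes. Their sums overlapped between the groups. Within the IL-33 group these sums, like those of the osteoclast genes, were also highest in library 2 and lowest in library 4. The summed level of dendritic cell markers was 100.7 to 135 CPM in controls and 200.2 to 267 CPM with IL-33, and that of fibroblast markers 2653 to 3384 and 3704 to 5297 CPM, both highest in IL-33 library 2. Of the 8 fibroblast markers, though, 4 were higher and 4 lower, where all tested genes also split near evenly (35.1% and 34.8%). Their median log2 fold change was -0.03. Endothelial markers summed to 4263 to 4676 and 2010.2 to 2777 CPM, and lymphocyte markers to 98.5 to 297 and 644 to 807 CPM. The part of these cell types in the cathepsin results was not tested.

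Per length of exon, the order of the genes differs from that in reads, since the short Cst3 and Ctsz gather fewer reads per transcript than the long Ctsb and Ctsl. In RPKM, which is CPM per kilobase of exon, Cst3 was the highest of the 10 in both groups, at 477 ± 25.9 in controls and 582 ± 23.8 with IL-33. In controls Ctsd followed at 134 ± 7.70, then Ctsz at 80.5 ± 5.37 and Ctsb at 72.7 ± 5.33, whose ranges overlapped. Ctsc at 48.9 and Ctsh at 48.2 overlapped too, as did Ctsa at 32.7 and Ctsl at 29.4, and Ctsk at 17.2 and Ctse at 4.32 closed the order. With IL-33, Ctsz at 293 ± 53.0, Ctsd at 256 ± 35.2 and Ctsb at 231 ± 37.0 followed Cst3 with overlapping ranges between neighbours. Ctsk, now at 74.9 ± 7.57, stood next in order, its range overlapping that of Ctsh at 58.0. Ctsl at 56.3, Ctsa at 54.7 and Ctsc at 49.7 each overlapped its neighbour, and Ctse stayed lowest at 16.7 ± 2.43. Using the longest transcript as length moved Ctsb above Ctsz in both groups, with overlapping ranges, and left Cst3 first and Ctse last. Without the exonic bases that Ctsd and Ctsl share with another gene on the same strand, Ctsd stood at 204 ± 11.7 in controls and 389 ± 53.6 with IL-33, above Ctsz in both groups and overlapping it with IL-33.

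The summed level of the 9 cathepsins was 473, 487, 482, 442 and 453 RPKM in controls 1 to 5 and 1047.5, 1329, 1079, 959.8 and 1033 RPKM in IL-33 libraries 1 to 5. That is 468 ± 19.2 against 1089.7 ± 141 RPKM, 2.33-fold, with no overlap. The share of each cathepsin in the sum is given without a test, and the groups did not overlap for any share but that of Ctse. Ctsz made up 17.2% ± 0.552 of it in controls and 26.8% ± 1.56 with IL-33, and Ctsb 15.5% ± 0.666 and 21.1% ± 0.613. Ctsk went from 3.67% to 6.90% and Ctse from 0.922% to 1.53%. The shares of Ctsd (28.6% and 23.4%), Ctsc (10.5% and 4.62%), Ctsh (10.4% and 5.39%), Ctsa (6.99% and 5.05%) and Ctsl (6.29% and 5.17%) were smaller with IL-33. With the shared bases of Ctsd and Ctsl left out of their lengths, the Ctsd share was 37.7% and 31.7%, and the sum was 2.27-fold higher. These shares add to a fixed total, so a larger share of one gene makes the others smaller. RPKM levels, and so the sum and the shares, were not corrected for the length and GC trend. With it removed, the log2 fold change went from 1.86 to 1.25 for Ctsz, from 2.13 to 1.43 for Ctsk and from 0.93 to 0.59 for Ctsd. That of Ctsb went up from 1.67 to 1.75, so the sizes and order of the shares hold for uncorrected levels only.

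Cystatin C transcript was compared in the same way with the summed transcript of the 6 listed cysteine cathepsins. Cst3 per unit of the 6 summed cysteine cathepsins was 1.72, 1.54, 1.601, 1.64 and 1.53 in controls 1 to 5 and 0.831, 0.603, 0.768, 0.889 and 0.779 in IL-33 libraries 1 to 5. By exonic length, every control had more Cst3 than transcript of these 6 together, and every IL-33 library had less. The sum leaves out Ctss, Ctsf, Ctso and Ctsw. Ctss stood at 174 CPM in controls and 687 CPM with IL-33 over 1358 exonic bases. Ctsz, the highest of the 6 by exonic length, stood at 116 and 422 CPM over 1441 bases. The size of the ratio, and its place above or below 1, therefore hold for these 6 only. A ratio to all cysteine cathepsins was not tested. The mean ratio was 1.61 ± 0.0749 and 0.774 ± 0.107, and the IL-33 value was 0.482 of the control value, or 0.508 without IL-33 library 2. By the longest transcript it was 0.53, and IL-33 libraries 1 and 4 then stood above 1, at 1.03 and 1.09. The ratio was not corrected for the length and GC trend, with which the Cst3 change turns direction. These are transcript levels, and protein, enzyme activity and secretion were not measured here.

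**Figure D3:**
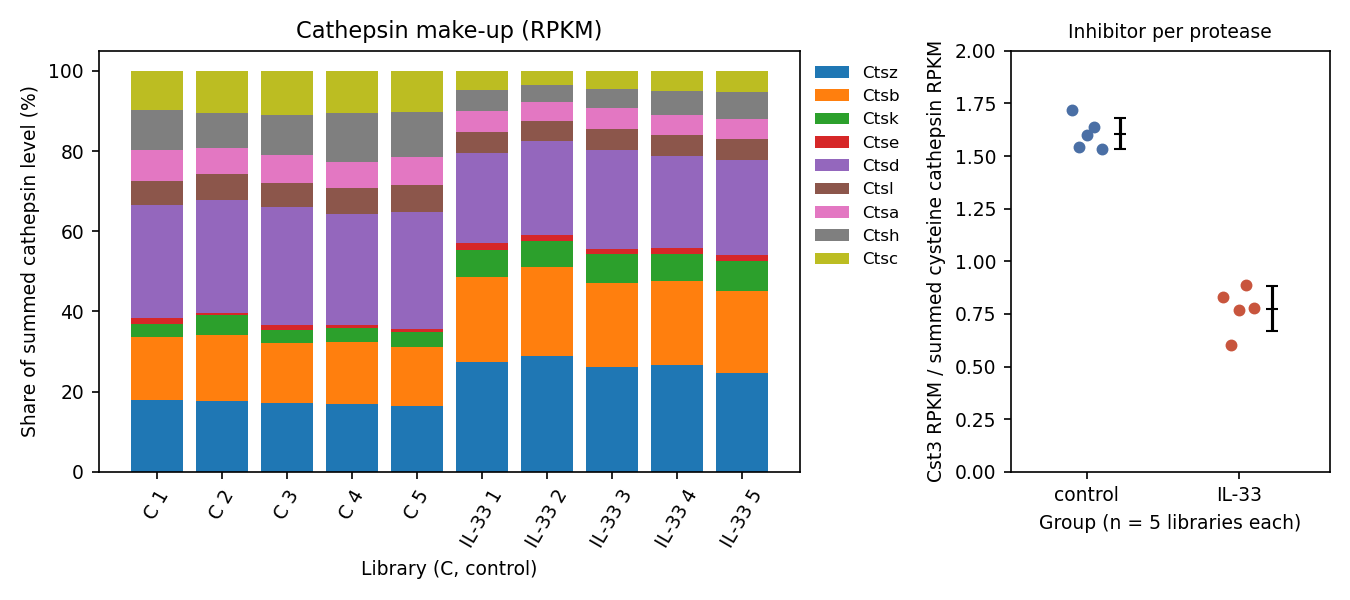
Left, share of each cathepsin in the summed cathepsin level (RPKM, percent) by library, C for control. Right, Cst3 RPKM divided by the summed RPKM of the 6 cysteine cathepsins, points are libraries and bars the mean ± SD of 5, at 1.61 in controls and 0.774 with IL-33.

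Promoter windows of all of the 10 genes that had an entry were searched for short motifs, and some of the upstream sequences are shown. The table of promoters, from RefSeq on GRCm38.p6 and so of the reference strain rather than BALB/c, held 7 of the 10 genes, in 8 windows of 250 bases before to 50 after a start. Ctsb, Ctse and Ctsh have no entry. The E-box CACGTG, read by the lysosomal gene regulators TFEB and TFE3, occurred in windows of 3 of the 7: Ctsd at positions -245 and -98, Ctsl at -236 and the second listed start of Ctsa at -12 and 6, counted from the start. All 4 motifs searched read the same on both strands. The E-box was in 7.15% of 32851 windows. The longer TCACGTGA, which contains it, occurred in Ctsd and in the second Ctsa window, and in 0.974% of all windows. A STAT6 motif, TTC and GAA with 4 bases of any kind between them (6.95% of windows), and an AP-1 motif, TGANTCA (7.81%), had no match in any of the 8 windows. Below, the 250 upstream bases are given for the 3 genes with an E-box, in capitals, and for Ctsk, the largest rise, whose window has none. The Ctsd start, the second Ctsa start and the Ctsl start lie inside the gene spans given above. The Ctsa and Ctsl sequences shown lie wholly within those spans, downstream of where the annotated gene begins. A match is a description of letters and not of binding.

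Ctsd, chr7:142387828-142388077, minus strand: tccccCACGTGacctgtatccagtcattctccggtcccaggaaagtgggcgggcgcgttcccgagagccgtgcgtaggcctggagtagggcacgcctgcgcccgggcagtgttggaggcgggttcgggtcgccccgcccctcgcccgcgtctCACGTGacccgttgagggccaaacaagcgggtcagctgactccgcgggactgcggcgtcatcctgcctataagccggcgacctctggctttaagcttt

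Ctsa, second start, chr2:164833523-164833772, plus strand: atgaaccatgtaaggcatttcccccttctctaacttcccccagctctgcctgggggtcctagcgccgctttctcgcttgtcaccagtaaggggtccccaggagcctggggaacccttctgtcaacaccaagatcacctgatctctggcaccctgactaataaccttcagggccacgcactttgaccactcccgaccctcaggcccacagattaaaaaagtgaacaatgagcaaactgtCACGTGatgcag

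Ctsl, chr13:64370521-64370770, minus strand: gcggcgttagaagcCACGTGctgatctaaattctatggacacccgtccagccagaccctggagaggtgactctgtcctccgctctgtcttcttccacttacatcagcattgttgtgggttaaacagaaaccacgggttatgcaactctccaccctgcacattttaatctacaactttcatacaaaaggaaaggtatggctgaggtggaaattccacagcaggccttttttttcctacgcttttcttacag

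Ctsk, chr3:95498960-95499209, plus strand: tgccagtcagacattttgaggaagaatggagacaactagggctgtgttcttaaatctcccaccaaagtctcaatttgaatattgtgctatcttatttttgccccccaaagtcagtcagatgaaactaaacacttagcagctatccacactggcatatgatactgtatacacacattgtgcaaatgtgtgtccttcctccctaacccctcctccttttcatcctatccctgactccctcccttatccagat

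The E-box occurs in Ctsd and Ctsl, the pair with the closest course, and in Ctsa, which with Ctsd forms the third closest pair. Of the second closest pair, Ctsz has no match and Ctsb has no entry. Other close pairs went both ways. Ctsh, with no entry, and Cst3, with no match, were at 0.166. Ctsa and Ctsl, both with a match, were at 0.168, and Ctsc and Cst3, both without, at 0.207. The closeness of Ctsd and Ctsl is also that of uncorrected levels: with the length and GC trend removed their log2 fold changes were 0.59 and 1.01. Whether the motif bears on any course was not tested. Ctsk, Ctsz, Cst3 and Ctsc, whose log2 fold changes run from 0.03 to 2.13, have no such match in their windows. With 7 genes, this is given as a description with no test. Transcripts of the regulators themselves were measured: Tfeb rose from 24.5 ± 2.77 to 32.1 ± 2.11 CPM (log2 0.39) and Tfec, a relative found mainly in macrophages, from 4.74 ± 0.435 to 14.4 ± 0.865 CPM (log2 1.597). Zkscan3, a repressor of lysosomal genes, fell from 69.4 ± 6.51 to 52.0 ± 3.87 CPM. Of the 6 listed regulators, 4 were higher, 1 lower and Mitf did not pass. All tested genes were called higher in 35.1% and lower in 34.8%, and 6 genes are few to set beside that.

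Other cathepsins outside the named 10 were called in both directions. Of 4 tested, Ctss and Ctsw were higher and Ctsf and Ctso lower, and Ctsg was too low to test. All tested genes also split near evenly, 35.1% higher and 34.8% lower, so nothing is read from that count. Ctss, a cysteine cathepsin of antigen-presenting cells, rose from 174 ± 14.9 to 687 ± 113 CPM (log2 1.98, and 1.197 with the length and GC trend removed). Ctsw, found in cytotoxic lymphocytes, rose from 4.96 ± 2.5 to 20.3 ± 2.88 CPM. Ctsf fell from 22.7 ± 3.0 to 15.4 ± 1.90 CPM.

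Most of the inhibitors other than cystatin C that could be tested were called higher. Of 22 listed, 17 matched a gene and 10 could be tested. Of these 10, 9 were higher and 1 lower, beside 35.1% and 34.8% of all tested genes. Their median log2 fold change was 3.27. That median was the same when Kng1, with 1 control read in all, was set against 3 reads over the controls. Kng1 had the largest rise of the 10 and stayed above the median either way, so this is no check of it. Several of these genes were at or near 0 in controls, so that only a rise could bring them past the filter on low counts. Nothing is therefore read from the count or the median. Serpina3g, a serpin that inhibits cathepsins in the cytosol, rose from 21.8 ± 6.09 to 232 ± 45.5 CPM. Cstb, the cytosolic stefin B, rose from 32.6 ± 3.10 to 122 ± 19.7 CPM, and Cst7, the intracellular cystatin F, from 0.667 ± 0.464 to 9.96 ± 1.28 CPM. With the length and GC trend removed, the log2 fold change of Cstb went from 1.90 to 0.79 and that of Cst7 from 3.85 to 2.98. Both were picked after their values were seen. The stefin genes BC100530 and Stfa2 had the largest fitted rises at 1 CPM or more, from 0.243 to 5.40 and from 0.0746 to 2.22 CPM. Their log2 changes of 4.43 and 4.70 were 3.43 and 3.58 with the trend removed, and BC100530 shares 25.6% of its 75-base windows with other genes, so reads of the family may be split. Serpinb6b stood at 105 ± 6.05 CPM in controls and 85.0 ± 12.3 CPM with IL-33, called lower although the groups overlapped.

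Other soluble lysosomal proteins moved both ways, with more called higher. Among 14 peptidases and cofactors, 9 were higher and 2 lower (64.3% and 14.3%), with a median log2 fold change of 0.38. The shares of all tested genes were 35.1% and 34.8%. Psap, the precursor of the saposins that help degrade sphingolipids, rose from 866 ± 43.0 to 1912 ± 244 CPM. Ifi30, the lysosomal thiol reductase of antigen processing, rose by 2.04 on the log2 scale, or 1.18 with the length and GC trend removed, and Gm2a, the ganglioside activator, by 1.48. Napsa, the napsin A of alveolar type 2 cells, fell from 303 ± 18.6 to 234 ± 21.8 CPM. Of 31 glycosidases, lipases, sulfatases and other hydrolases, 17 were higher and 7 lower (54.8% and 22.6%), at a median of 0.54. Acp5, whose values are given above, was the largest rise of the list at 1 CPM or more. Ids, iduronate sulfatase, fell from 235 ± 17.4 to 114 ± 11.3 CPM.

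Lysosomal membrane proteins were called in both directions: 7 of 20 were higher and 6 lower, close to the shares of all tested genes, and the median was 0.02. Lamp1, a main glycoprotein of the lysosomal membrane, stood at 813 ± 17.9 and 811 ± 15.1 CPM, a log2 difference of -0.0035 that did not pass (adjusted p = 0.962). Npc2, a soluble cholesterol carrier kept on this list, rose from 696 ± 27.9 to 1337 ± 56.3 CPM, Laptm5, of leukocyte lysosomes, by 1.71, and Cd63, a tetraspanin, by 1.54 on the log2 scale. Scarb2, the receptor that carries glucocerebrosidase to the lysosome, fell from 432 ± 30.2 to 262 ± 12 CPM. With the trend removed Lamp1 was called lower (-0.31).

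Subunits of the proton pump V-ATPase were mostly higher, 14 of 20 against 2 lower (70% and 10%), with a median log2 fold change of 0.47. The shares of all tested genes were 35.1% and 34.8%. Atp6v1b2, the most abundant of them, rose from 144 ± 5.49 to 285 ± 15.1 CPM. Atp6v1f and Atp6v0e rose by 1.21 and 1.00, and the first of these, a short gene, by 0.39 with the length and GC trend removed. With that trend removed 12 were higher and 4 lower, beside 29.4% and 39.1% of all tested genes. Atp6v0c stood at 8.33 ± 3.78 and 4.98 ± 1.37 CPM, and its call as lower (adjusted p = 0.0485) was lost in 7 of 10 fits that left out 1 library.

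Genes of lysosomal sorting were more often called lower. Of 16, 3 were higher and 9 lower, with a median of -0.21. That is 18.75% and 56.25%, beside 35.1% and 34.8% of all tested genes. With the length and GC trend removed 4 were higher and 7 lower, and the median was -0.11. The shares of all tested genes were then 29.4% and 39.1%, so the excess of lower calls was smaller. Sort1, the sorting receptor sortilin, fell from 522 ± 33.3 to 221 ± 27.8 CPM (log2 -1.24). Igf2r, the large mannose 6-phosphate receptor, fell from 114 ± 12 to 90.6 ± 10.3 CPM, with overlapping groups, and the call was lost with the length and GC trend removed (-0.08, adjusted p = 0.302). M6pr, the small mannose 6-phosphate receptor, did not pass (log2 0.03). Ap1s1 and Ap1b1, subunits of the clathrin adaptor AP-1, rose by 1.29 and 0.23 on the log2 scale.

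**Figure D4:**
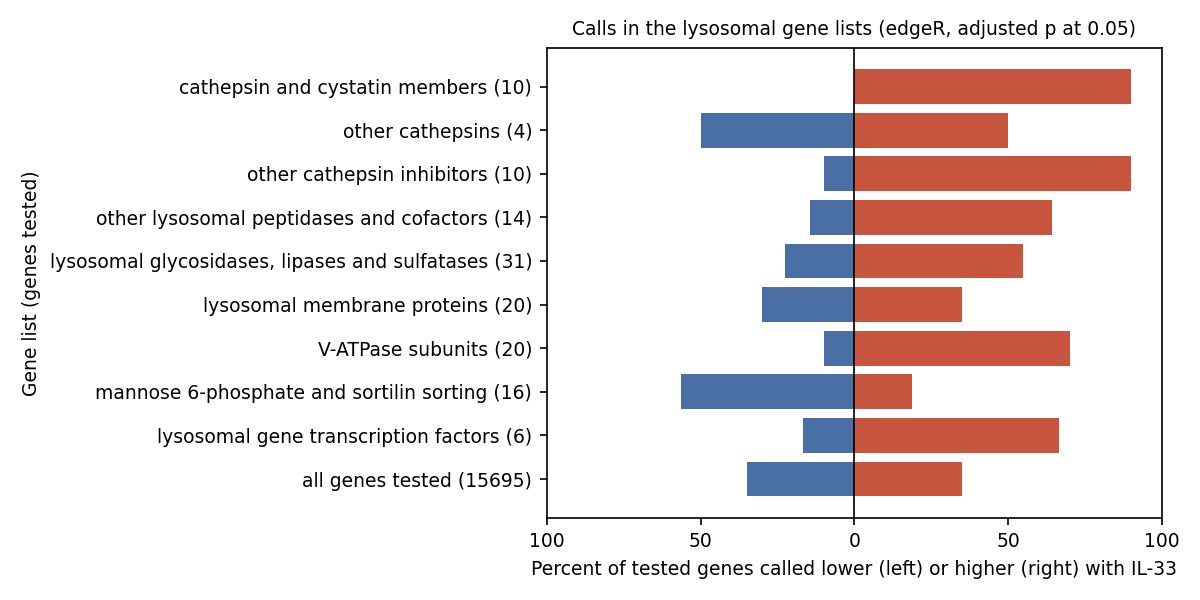
Percent of the tested genes of each list called lower (blue, left) or higher (red, right) with IL-33 by edgeR at an adjusted p of 0.05, number tested in brackets. All tested genes split into 35.1% higher and 34.8% lower, the 10 cathepsin and cystatin genes into 9 and 0 genes, and sorting genes into 3 and 9.

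Reads of some of the 10 genes could be shared with others. In the annotation used here Ctsd overlaps the gene model Gm49369 over 808 of its 2351 exonic bases on the same strand, and that model has 0 reads in all libraries. Ctsl overlaps a pseudogene, Gm49230, over 395 bases on the same strand and an antisense gene, Gm47123, over 1742 bases on the other. Of their 75-base windows, Ctsd shares 31.3%, Ctsl 24.6%, Ctsb 11.8% and Ctsa 9.25% with another gene, and the other 6 share none. On the opposite strand, Ctsa overlaps Pltp and Neurl2, Ctsb overlaps Fdft1, and Ctsz overlaps Nelfcd over 10 bases. The sources used here do not state how the counting treated strand, so the levels of Ctsa, Ctsb, Ctsd, Ctsl and Ctsz are uncertain to that extent.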

How the data were processed

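Per the labels, lung tissue was preserved, RNA was column-extracted, enriched for polyA and made into stranded libraries. Per the submitters' processing notes, FastQC 0.11.6, MultiQC 1.6, STAR 2.5.4b, HTSeq 0.9.1 and GRCm38 were used; the sources used here state no annotation release or strand setting. The deposited values are raw counts per gene, per the files. Entries naming no gene (no feature, 10.39% to 13.71% of records; ambiguous, 0.8618% to 0.9451%; multiply aligned, above) were left out.

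Groups follow the treatment label. A model of group alone was fitted to the 10 libraries with edgeR 4.0.16 under R 4.3.3, using TMM scaling, filterByExpr and the quasi-likelihood test, adjusted by Benjamini-Hochberg over 15695 genes. The biological coefficient of variation was 0.136. SEs come from log2(CPM + 0.5) over 5 and 5 libraries. Lengths and positions are from GENCODE M21 (GRCm38), matched by identifier for 53274 genes. No library pair was a duplicate (chi-square per degree of freedom 5.09 to 27.6).

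The members and lists were chosen with earlier results of these data known. Named genes are all 10 members and, of each list, the most abundant gene, the 2 largest called rises and the largest called fall at a mean of 1 CPM or more, plus the 3 nearest in profile to the member with the largest rise and to the most abundant one. Of these, 4 are not reported here. Others named were chosen after their values were seen. Alternatives were DESeq2 1.42.0 or its size factors, library size alone, no or a stricter filter, scaling without the 50 most abundant genes, voom of limma 3.58.1, the replicate number as a block, length and GC offsets, other lengths (the one without same-strand shared bases was added after seeing the data) and pseudocounts, and leaving out each library. The fit was tested on simulated counts.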

Additional observations from a re-analysis of the deposited data

Results flagged for a closer look

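Of 108 groups of 5 library values tested, for genes and for the pool, 10 held 1 library that stood apart by Dixon's criterion (critical value 0.71), where chance alone marks about 1 in 20. IL-33 library 2 accounts for 5 of them: Ctsb at 1779.9 CPM (next 1368), Ctsz at 553.5 CPM (next 413), Ifi30 at 485.6 CPM (next 368), the summed cysteine cathepsins at 938.0 RPKM (next 741), and, at the low end, the Ctsa share of the cathepsin sum at 4.53% (next 5.13%). In IL-33 library 5, Ctsh stood at 313.9 CPM (next 252) and Ctsc at 310.8 CPM (next 286). Control library 2 was high for Ctsk at 36.6 CPM (next 25.0) and for Dclk1 at 13.7 CPM (next 9.98). Control library 1 was high for Acp5 at 22.3 CPM (next 17.0). These 5 values of IL-33 library 2 lie further from the controls than those of the other IL-33 libraries.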

How the results depend on the processing

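Directions and calls of the 10 genes were kept in 191 of 200 alternatives, and those of the named list genes in 707 of 719. Calls over all genes ran from 10516 to 11089 when single libraries were left out, 8 to 9 of them among the 10 genes, and were 10975 with all libraries, 12120 with no low-count filter and 11875 in DESeq2. Cst3 turned to -0.383 with length and GC offsets (adjusted p = 0.000352) and to -0.385 with these and the replicate block (adjusted p = 0.000976). Of the 10975 calls, 8824 were also made in the same direction with the offsets and 154 in the opposite one. Ctsc, never called, was at -0.00997 with no filter and at -0.00092, -0.0017, -0.0018 and -0.0075 without control 1, control 4, control 5 and IL-33 library 5; over all leave-outs it ran from -0.0075 to 0.0465. Ctsh lost its call with no filter (0.23, adjusted p = 0.0549) and without control 2 (0.21, adjusted p = 0.0573), as did Ap1b1 with no filter and Atp6v0c in limma-voom and 7 leave-outs. Lower calls went from 2 to 4 among peptidases and among V-ATPase subunits with the offsets, V-ATPase lower calls to 1 without Atp6v0c, higher calls of sorting genes from 3 to 1 with no filter, and lower calls of regulators from 1 to 2 without control 1; the cause was not tested. Same-numbered libraries deviated together with r of 0.268, 0.234, 0.0652, -0.0482 and 0.17, so the numbers were not taken as pairs. With the replicate number as a block, 11122 genes were called, 10793 of them as before and none in the opposite direction. Shares of the pool shifted with the length used (Ctsz 1.56-fold by exons, 1.65-fold by the longest transcript). Ctse, with 767 control reads, is the least precise of the 10, and intervals of counting do not cover differences between animals.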
